A study of Arabidopsis thaliana with 9 samples.

Results

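Non-specific lipid transfer proteins (LTPs) and hybrid proline-rich proteins (HyPRPs) were followed in root tips of 3 genotypes of *Arabidopsis thaliana*. A set of 60 loci of these families was taken, and members were the probe sets of the Affymetrix ATH1 array that the array annotation assigns to one of these loci alone. There were 27 such probe sets of 22746 tested, 1 for each of 27 loci. A further 3 probe sets cover 5 of the loci but each match more than 1 gene, and they are described apart, without gene names, and the 28 other loci of the set were not analysed here. The families were grouped by general knowledge of their relationships, since the annotation gives no product for these loci. A listed gene is called measured below where the annotation assigns a probe set to it alone. The annotation names no gene for 8730 of the probe sets, so a gene not measured here may still be on the array.

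The accessions Cape Verde Islands (Cvi, Cvi-1 in the labels) and Landsberg *erecta* (L*er*, L*er*-2 in the labels) were compared with each other and with 170G-55-16, a near isogenic line (NIL) that the labels also call HGI2.1. Each genotype had 3 arrays, and each array held RNA of about 600 pooled root tips of 7 mm, given as 1 biological replicate. Seedlings of all genotypes were 5 d old and had spent 2 d on upright plates and then 3 d on plates tilted back by 30°, and no chemical treatment is named in the labels. The NIL is a single line, and which segments it received from its donor was not taken from the labels. The array was hybridized with whole root tips, so that a change in the share of a cell type and a change in its RNA per cell cannot be told apart.

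LTPs are small secreted proteins in which a fixed pattern of cysteines forms disulphide bridges around a hydrophobic tunnel that can hold a lipid. They are known for work at the cell surface, in the build-up of cuticle and suberin and in defence, and some are tied to the plasma membrane by a glycosylphosphatidylinositol (GPI) anchor, which gives the LTPG group. HyPRPs carry the same cysteine-rich domain behind a proline-rich stretch that is thought to sit in the cell wall. In this family *AZI1*, *EARLI1* and *AIR1* lie in 1 tandem array, and *DIR1* is an LTP-like protein of systemic acquired resistance, the spread of defence from an infected leaf to the rest of the plant.

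The deposited value of a probe set is a hybridization signal on a linear scale, which the authors had normalized between arrays. Differences are given on the log2 scale, from 1 limma fit to all 9 arrays over 22746 probe sets, and a member was called where its Benjamini-Hochberg adjusted p over all these probe sets was under 0.05, at any fold. A probe set was taken as dim where its mean log2 signal over the 9 arrays was below 5.37 (a signal of 41.4), the bound of the lowest of 3 equal parts of all probe sets. Apart from this split, signals of different probe sets were not ranked against each other, because probes differ in how strongly they bind. For the same reason dim describes the signal only and is not a call of whether a transcript was present. Array 1 of Cvi stood apart from the other arrays of its genotype, with r = 0.978 and 0.980 to these, whereas the lowest r within L*er* or the NIL was 0.996. Where leaving it out changed a call, a sign or the size of a difference stated for a member by over 1.5 times, the value without it is given too.

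Of the 27 members, 5 were called between Cvi and L*er*, while 13% of all probe sets were called. Cvi was higher at 3 members (background 5.75%) and lower at 2 (background 7.27%), so that 18.5% of the members were called. This share rests on 5 genes and was not tested against the background. The members were chosen with earlier results of these data known, so the share is not independent of these data. AT3G22570 was lower in Cvi by 38.0-fold and AT2G45180 by 2.54-fold. AT4G22460 was higher in Cvi by 3.85-fold, AT2G18370 by 2.13-fold and AT3G58550 by 1.81-fold. For each of the 5, no Cvi array overlapped with a L*er* array. Over the members this held for 9 of 27, and over all probe sets for 27.2%. An exact two-sided permutation test of 3 arrays against 3 cannot give a p below 0.1, the value it gave for each of the 5.

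**Figure D1:**
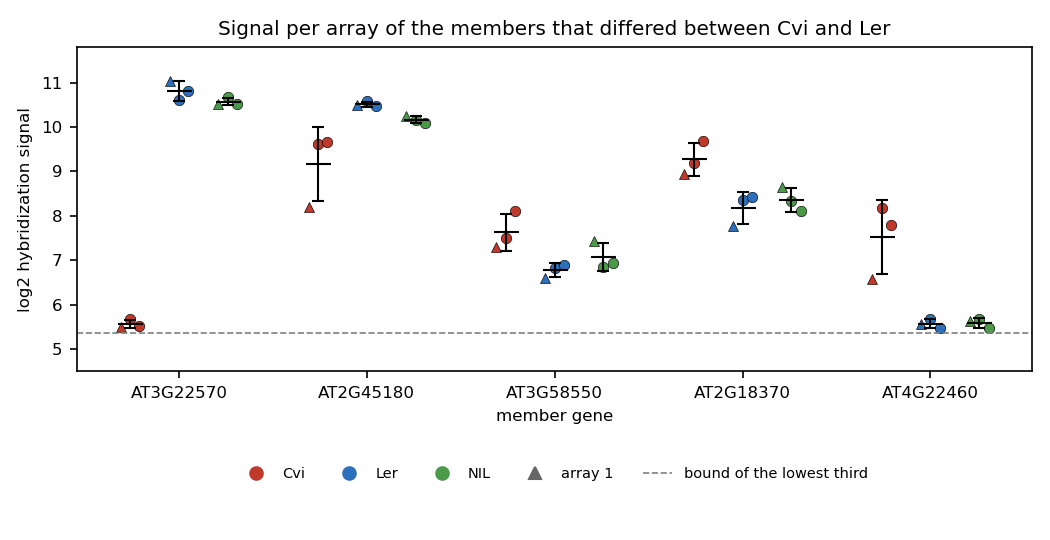
Log2 hybridization signal (vertical axis) on each array for the 5 members called between Cvi and L*er*, with the 3 arrays of Cvi, L*er* and the NIL as points (array 1 as a triangle) and the mean ± SD as bars (n = 3). The Cvi points of AT3G22570 lie near the dashed bound for dim probe sets at 5.37, while those of L*er* and the NIL lie above 10, and for AT4G22460 only the Cvi points rise clear of the bound.

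AT3G22570, a gene with an LTP domain on chromosome 3, was the member with the largest difference. Its signal was 45.0, 50.8 and 46.1 on Cvi arrays 1, 2 and 3. On the L*er* arrays it was 2088, 1549 and 1789.6, and on the NIL arrays 1471, 1629 and 1471. The 3 Cvi arrays were therefore all just above the bound for dim probe sets, and L*er* and the NIL overlapped with each other far above it. The mean log2 signal of Cvi, 5.56 ± 0.09 (SD, n = 3), and that of L*er*, 10.81 ± 0.22 (SD, n = 3), differed by −5.25 with a standard error of 0.12 (95% confidence interval −5.52 to −4.98, adjusted p = 2.89e-09 from limma). By size this difference ranked 9 of all 22746 probe sets. The NIL, at 10.57 ± 0.09 (SD, n = 3), exceeded Cvi by 5.01 (adjusted p = 4.65e-09 from limma), and its own difference from L*er*, −0.24, was not called. With a Cvi signal close to the dim bound, the size of the fold is limited by background signal, and the Cvi sequence was not compared with that of the probes.

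AT3G22570 is the first of 4 listed genes that lie close together on chromosome 3, and of the others AT3G22620 was measured. AT3G22620, of the LTPG group, gave signals of 3946, 5391 and 5703 in Cvi, of 4406, 4247 and 4318 in L*er* and of 4705, 4654 and 5024 in the NIL. Its difference between Cvi and L*er* was 0.20 (standard error 0.13, adjusted p = 0.435 from limma), so the 2 genes of this cluster differed in whether they passed, though the contrast between them was not tested. Cvi array 1 lay below every L*er* array for AT3G22620, and the other Cvi arrays lay above all of these. Without Cvi array 1 the difference was 0.36 and was called (adjusted p = 0.0104 from limma).

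AT4G22460 opens a cluster of 4 listed HyPRP-type genes on chromosome 4. In Cvi its signal was 95.7, 287.5 and 223.0 on arrays 1, 2 and 3, against 47.2, 51.1 and 44.6 in L*er* and 49.6, 51.1 and 44.2 in the NIL. All Cvi arrays were higher than all others, while L*er* and the NIL had overlapping values close to the dim bound. The difference between Cvi and L*er* was 1.94 with a standard error of 0.32 (95% confidence interval 1.24 to 2.64, adjusted p = 0.00217 from limma), and it was 2.41 without Cvi array 1. With L*er* this close to the dim bound, the size of this fold too is limited by background signal. It was 1.66 on the log2 scale with 16 added to the signal. The sequences of the genotypes were not compared with that of the probes. The NIL differed from Cvi by −1.92 (SE 0.32, adjusted p = 0.00274 from limma), and differed from L*er* by 0.02.

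The neighbours of AT4G22460 in this cluster were dim. AT4G22470 had signals of 27.3, 35.9 and 43.9 in Cvi, of 26.8, 32.6 and 31.6 in L*er* and of 29.2, 36.1 and 27.9 in the NIL, which overlapped, with a difference between Cvi and L*er* of 0.21 (adjusted p = 0.525 from limma), or 0.39 without Cvi array 1 (adjusted p = 0.0566 from limma). AT4G22490 lay between 10.9 and 15.4 on all 9 arrays, and its difference was −0.04 (adjusted p = 0.904 from limma), or 0.078 without Cvi array 1. At such signals a transcript near the background would not have been detectable, and 2 protein-coding genes stand between each of these measured genes and the next.

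AT2G18370, on chromosome 2, is an LTP of type 1, the group of the classical small LTPs with a signal peptide. Its signal in Cvi was 494.1, 584.5 and 817.1, in L*er* 218.5, 325.5 and 342.3, and in the NIL 401.5, 321.2 and 275.7. The lowest Cvi array was above the highest array of either other genotype, and the NIL lay among the L*er* arrays apart from NIL array 1, which was above them. The difference between Cvi and L*er* was 1.09 with a standard error of 0.23 (95% confidence interval 0.59 to 1.59, adjusted p = 0.00899 from limma). It was called in every alternative tried, with an adjusted p of at most 0.0420. Between the NIL and Cvi it was −0.91 (standard error 0.23, adjusted p = 0.0265 from limma), and this call was lost without NIL array 2 or 3, without Cvi array 3 and in a fit to the 6 arrays alone (adjusted p = 0.0531 to 0.117). AT5G01870, the other type 1 LTP measured, had a difference of −0.02 between Cvi and L*er* (adjusted p = 0.961 from limma), with 56.0 on Cvi array 1 and 91.7 and 90.4 on the other Cvi arrays, on both sides of the L*er* range of 73.7 to 86.8. This difference was 0.21 without Cvi array 1 and was not called.

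AT3G58550, of the LTPG group on chromosome 3, had 156.7, 180.9 and 274.5 in Cvi, 97.1, 113.9 and 119.2 in L*er*, and 171.8, 115.1 and 123.1 in the NIL. Cvi and L*er* did not overlap, and NIL array 1 reached into the Cvi range. The difference between Cvi and L*er* was 0.85 with a standard error of 0.21 (95% confidence interval 0.38 to 1.33, adjusted p = 0.0244 from limma). The call was lost without any one of the L*er* arrays and without Cvi array 3, with an adjusted p of 0.0604 to 0.108 and a difference of 0.62 to 0.91. The NIL differed from Cvi by −0.56, which was called only without Cvi array 1 (−0.73, adjusted p = 0.0191 from limma).

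AT2G45180, a HyPRP gene on chromosome 2, was the second member that was lower in Cvi. Its signal was 292.9, 791.0 and 815.1 in Cvi, 1438, 1524 and 1414 in L*er*, and 1213, 1134 and 1096 in the NIL. The genotypes did not overlap, with L*er* highest and Cvi lowest. The difference between Cvi and L*er* was −1.35 with a standard error of 0.32 (95% confidence interval −2.05 to −0.64, adjusted p = 0.0177 from limma). Without Cvi array 1 it shrank to −0.86, while the spread fell with it and the call was kept (adjusted p = 2.33e-05 from limma). The call was lost without any one of the L*er* arrays (adjusted p = 0.0643 to 0.0686) and in a fit to the 6 arrays compared (adjusted p = 0.0702). The NIL lay 0.35 below L*er*, a difference that was not called (95% confidence interval −1.05 to 0.35, which includes the spread of the Cvi arrays). It lay 1.00 above Cvi (adjusted p = 0.0746 from limma), a difference that was called without any one of the Cvi arrays. This difference was 0.51 without Cvi array 1, and 1.23 and 1.25 without Cvi arrays 2 and 3.

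The other 22 members were not called between Cvi and L*er*, and their differences ran from −0.69 to 0.22, with confidence bounds of −1.32 and 0.60 at the outermost. The members not called in a fit without Cvi array 1 ran from −0.26 to 0.39. Over all 27 members the median difference was −0.11, with 8 above 0 and 19 below, and over all probe sets the median was 0.01. This balance rested on Cvi array 1, without which 15 members were above 0 and 12 below. A difference under 0.5 in either direction was found at 20 of the 27 members and at 86.3% of all probe sets. Of the 12 dim members none was called in any comparison. Over all 7582 dim probe sets the called share was 6.12% between Cvi and L*er*. It was 0.198% between the NIL and L*er*, and 5.10% between the NIL and Cvi. With only 12 members, the lack of a call is close to these shares, and it was not tested against them. The differences of the dim members between Cvi and L*er* lay between −0.47 and 0.22 (−0.25 and 0.39 without Cvi array 1). All 5 calls between Cvi and L*er* were among the 15 brighter members, a split that was not tested.

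**Figure D2:**
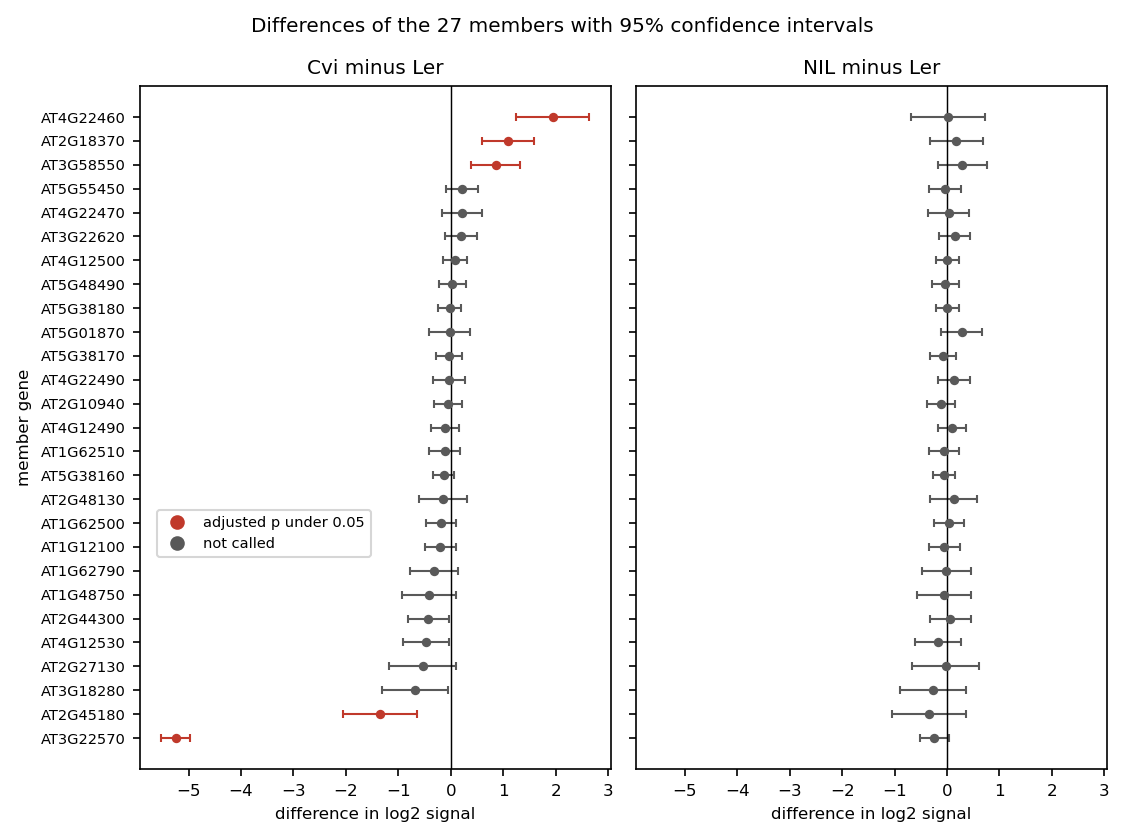
Difference in log2 signal (horizontal axes) of Cvi minus L*er* (left) and NIL minus L*er* (right) for each of the 27 members, ordered by the first, with 95% confidence intervals from limma and called members in red. AT3G22570 at −5.25 and AT4G22460 at 1.94 stand out on the left, whereas all NIL values on the right lie between −0.35 and 0.29.

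By group, the LTPG genes had 1 of 6 members called between Cvi and L*er*, AT3G58550. The others of this group were AT1G62790, AT2G27130, AT2G44300, AT2G48130 and AT3G22620, with differences of −0.54 to 0.20. Leaving out Cvi array 1 gave −0.04 for AT1G62790, −0.11 for AT2G27130, −0.20 for AT2G44300, 0.13 for AT2G48130 and 0.36 for AT3G22620. None of the 5 LTPs of type 2, a group of shorter LTPs, was called. Of these, AT5G38160, AT5G38170 and AT5G38180 form a cluster of 3 directly adjacent genes on chromosome 5 and were dim, with signals of 10.7 to 17.5 on all arrays and differences of −0.14, −0.03 and −0.02, or −0.10, 0.026 and 0.060 without Cvi array 1. AT1G48750 and AT3G18280, the other type 2 LTPs, gave bright signals and differences of −0.42 and −0.69, which shrank without Cvi array 1 as given further on.

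The HyPRPs outside the tandem arrays had 1 of 5 called, AT2G45180, and AT1G62500, AT1G62510, AT1G12100 and AT2G10940 had differences of −0.20 to −0.05, and of −0.10 to 0.05 without Cvi array 1. AT1G62500 and AT1G62510 are direct neighbours on chromosome 1 and lay at 44.7 to 66.6 and at 36.7 to 52.7 on the 9 arrays. In the *AZI1*, *EARLI1* and *AIR1* array on chromosome 4, 3 of 9 listed genes were measured, and all were dim. AT4G12490 lay at 12.9 to 17.7, AT4G12500 at 10.7 to 13.2 and AT4G12530 at 24.7 to 51.8. AT4G12530 was at −0.47 in Cvi against L*er*, with no overlap between the arrays of these genotypes, and was not called (adjusted p = 0.168 from limma). It had 24.7 on Cvi array 1 against 41.8 and 37.0 on the other Cvi arrays, and leaving out array 1 gave a difference of −0.25. AT5G48490, the gene beside *DIR1*, was dim as well, at 13.2 to 17.9 with a difference of 0.03 (0.14 without Cvi array 1), and AT5G55450 had 12.1 to 18.2 and a difference of 0.22.

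Of the 3 shared probe sets none was called in any comparison over all 9 arrays. The one shared by a pair of listed genes of the *AZI1* array was bright, with 5054, 7800.0 and 7718 in Cvi, 10194, 9373 and 9126 in L*er*, and 9107, 9107 and 9630 in the NIL (values in the order of the arrays). Cvi lay below both other genotypes without overlap, by −0.51 against L*er* (standard error 0.16, adjusted p = 0.0617 from limma). The difference was smaller without Cvi array 1, at −0.30, and was called (adjusted p = 0.0306 from limma). The members of the same array with a probe set of their own were all dim, which is no comparison of transcript levels. The other shared probe sets ranged from 3085 to 5213 and from 465.9 to 950.3 over the 9 arrays, with differences between Cvi and L*er* of 0.18 and −0.42, or 0.30 and −0.24 without Cvi array 1, none of them called.

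Across the Cvi arrays the members moved together. On Cvi array 1 all 27 members gave a lower signal than on either other Cvi array, as did the 3 shared probe sets, while 47.7% of all probe sets did so (41.9% of those that were not dim). The median of Cvi array 1 minus the mean of the other Cvi arrays was −0.48 over the members and −0.05 over all probe sets. Among probe sets that were not dim it was −0.70 over 15 members and 0.06 over the array. No member was an exception, whether LTP, LTPG or HyPRP, but 12 of the 27 were dim. Among these the value was as small as −0.098 for AT5G38160 and −0.10 for AT4G12500, at signals near the background.

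The fall on Cvi array 1 was at least 2-fold at 5 members, AT1G48750, AT2G27130, AT2G45180, AT3G18280 and AT4G22460, while 3.47% of all probe sets were that much lower. AT1G48750, an LTP of type 2, had 2360 on Cvi array 1 and 4711 and 4938 on the other Cvi arrays, close to the 4987 to 5212 of L*er*. AT2G27130, of the LTPG group, had 123.0 on Cvi array 1 against 297.4 and 303.9, and 302.5 to 349.9 in L*er*. AT3G18280, of type 2, had 504.3 on Cvi array 1 against 1263 and 1203, and 1391 to 1555 in L*er*. For all 3 genes the low mean of Cvi came mainly from array 1, and without it their differences from L*er* were −0.07, −0.11 and −0.26, none of them called.

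**Figure D3:**
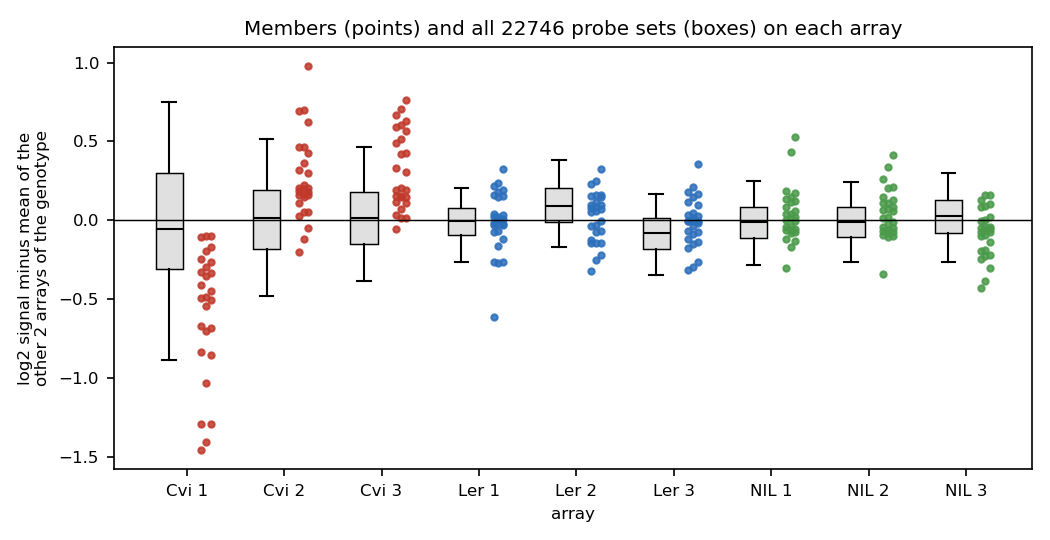
Log2 signal on each array minus the mean of the other 2 arrays of its genotype (vertical axis), for the 27 members (points, spread sideways only to be visible) and for all 22746 probe sets (boxes from the lower to the upper quartile with the median, whiskers from the 5th to the 95th percentile). On Cvi array 1 every point lies below 0, down to −1.45 for AT2G45180, while the box lies around a median of −0.05.

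In the other genotypes the members varied about as much as all probe sets. The median SD of a member over 3 arrays was 0.11 in L*er* and 0.09 in the NIL, against 0.11 and 0.10 over all probe sets, and it was 0.29 in Cvi against 0.20. Cvi arrays 2 and 3 differed from each other by a median of 0.08 over the members, and by under 0.5 at 26 of 27. Without Cvi array 1, the median difference of the members between Cvi and L*er* was 0.03, and 6 were called, namely the same 5 and AT3G22620, while 23.7% of all probe sets were called.

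Measures of RNA quality and of other tissues did not all single out Cvi array 1. The ratio of the 3′ to the 5′ control probe set was 0.430 for *GAPDH* on Cvi array 1 and 0.475 to 0.540 on the other arrays. For ubiquitin it was 3.27 on Cvi array 1, 3.35 and 4.21 on the other Cvi arrays and 1.95 to 2.50 in L*er* and the NIL. Of the shoot photosynthesis markers, 3 of 23 listed were measured. *PSAE-1*, a photosystem I subunit gene, had 101.4 on Cvi array 1 against 245.8 and 247.9 on the other Cvi arrays. It had 116.0 to 122.2 in L*er* and 100.2 to 112.1 in the NIL. *LHCB4.1*, an antenna protein gene, had 200.2 against 311.1 and 347.8, with 352.4 to 407 in L*er* and 347.1 to 366.5 in the NIL. *RCA*, the Rubisco activase gene, had 496.2 against 354.3 and 404.6, with 558.7 to 593.2 in L*er* and 492.1 to 610.9 in the NIL. For *PSAE-1* and *RCA*, Cvi array 1 was thus within the NIL range and the other Cvi arrays were outside it. For *LHCB4.1*, Cvi array 1 was the lowest of all arrays. Whether these play a part in the low member signals of Cvi array 1 was not tested.

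Between the NIL and L*er* none of the 27 members was called, while 0.356% of all probe sets were (81, or 30 to 223 in the other fits run). No member reached an unadjusted p under 0.05 in limma either, while 3.59% of all probe sets with 1 gene did. A count of 0 among 27 is near both shares. The count of called members stayed at 0 in all other fits run. The differences lay between −0.35 (AT2G45180) and 0.29 (AT3G58550), with a median of −0.01, and the outermost confidence bounds were −1.05 and 0.77. Differences of up to about 2-fold were therefore within the intervals for single members. These intervals come from the fit to all 9 arrays, so they carry the spread of the Cvi arrays too. For AT2G45180, which gave the bound of −1.05, the SD was 0.06 in L*er*, 0.07 in the NIL and 0.84 in Cvi. In the fit to the 6 arrays of the NIL and L*er* its adjusted p was 0.116 from limma. Groups did not overlap at 5 of 27 members, and over all probe sets at 13.6%. The NIL was lower at AT2G45180 and AT3G18280 and higher at AT2G48130, AT3G22620 and AT5G01870 in these 5, with an exact two-sided permutation p = 0.1 for each.

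On chromosome 2, where 6 members lie, the differences of the NIL from L*er* were 0.18 for AT2G18370, −0.12 for AT2G10940, −0.03 for AT2G27130, 0.06 for AT2G44300, −0.35 for AT2G45180 and 0.13 for AT2G48130. At the same loci the differences of Cvi from L*er* in the same order were 1.09, −0.05, −0.54, −0.43, −1.35 and −0.15. They were 1.25, 0.05, −0.11, −0.20, −0.86 and 0.13 without Cvi array 1, so that AT2G10940 and AT2G48130 changed sign and neither was called. Both columns of values share the L*er* arrays. At the loci called between Cvi and L*er*, AT2G18370 and AT2G45180, the NIL was the closer to L*er* by its mean.

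Between the NIL and Cvi, 3 of the 27 members were called, with a background of 10.8%. AT3G22570 was higher in the NIL (background 5.23%), and AT4G22460 and AT2G18370 were lower (background 5.61%). The Cvi arrays are shared with the comparison of Cvi and L*er*, in which these members were called as well, so the calls of both are not independent. The 24 members that were not called had differences of −0.56 to 1.00, the highest being AT2G45180. The median was 0.15, and without regard to the test 17 members were higher and 10 lower in the NIL. This balance rested on Cvi array 1. Without it the median was −0.0022, with 13 members higher and 14 lower, 5 members were called (17.7% of all probe sets), and those not called ran from −0.36 to 0.26.

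Genes that act with LTPs and markers of the tissue were measured in part, 14 of the 131 listed. Over all 9 arrays none of the genes of suberin, wax and cutin synthesis, systemic acquired resistance, lateral root emergence or proline-rich wall proteins that were measured was called in any comparison (1 of 12, 1 of 22, 1 of 10, 3 of 14 and 1 of 9 listed, in this order), nor without Cvi array 1 between Cvi and L*er*. *FACT*, which makes suberin-associated waxes, had a difference between Cvi and L*er* of 0.29, the wax ester synthase gene *WSD1* one of −0.02, the lateral root regulators *LBD16* and *LBD29* 0.03 and −0.01, and the wall glycoprotein gene *HRGP1* −0.20. Leaving out Cvi array 1 gave 0.12 for *FACT*, 0.029 for *WSD1*, 0.098 for *LBD16*, 0.21 for *LBD29* and −0.41 for *HRGP1*. Some of these genes were dim, namely *WSD1*, at signals of 7.31 to 8.96, and AT5G03350, of systemic acquired resistance, at 25.9 to 35.2. AT5G14650, of the lateral root emergence list, was dim too, at 7.58 to 8.87. For these 3 genes the lack of a call does not show that the transcript was the same. Root markers were bright on all arrays, with *PYK10*, a β-glucosidase gene of roots, at 8790 to 13048 and the root hair expansin genes *EXPA7* and *EXPA18* at 862.1 to 1348 and 1188 to 1556. *EXPA7* had a difference of 0.26 between Cvi and L*er*, which was called without Cvi array 1 (0.39, adjusted p = 0.0129 from limma). Of the cell division markers, 1 of 10 was measured, *KINESIN-12B*, with a difference of 0.02 (−0.15 without Cvi array 1). No listed lipid exporter of the ABCG family, suberin transcription factor or endodermis marker had a probe set of its own in the annotation used. The shoot markers went in both directions. *RCA* had a difference of −0.47 between Cvi and L*er* and was called (adjusted p = 0.0467 from limma), while *LHCB4.1*, at −0.47 (adjusted p = 0.127 from limma), and *PSAE-1*, at 0.64 (adjusted p = 0.192 from limma), were not. In the fit without Cvi array 1, *RCA* was at −0.60 and *LHCB4.1* at −0.23, and *PSAE-1* was higher in Cvi by 1.06 and was called (adjusted p = 3.72e-06 from limma). Whether shoot or greening tissue plays a part in the member differences was not tested.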

How the data were processed

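Root tip RNA of Cvi, L*er* and the NIL 170G-55-16 was measured on ATH1 arrays, 3 per genotype, grouped by the submitters' titles. The deposited values are 1 intensity (hybridization signal) per probe set, on a linear scale, and normalization between arrays had been done by the authors. MAS5 and RMA, both without a version, are listed in the submitters' notes on processing, and it is not said which of them made these values. Depth has no counterpart on arrays, whose number limits the precision, and detection calls were not used.

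The table holds 22810 probe sets, of which 64 controls were left out of the tests. Genes were named through the platform annotation, and chromosomes and gene order were read from the RefSeq gene table of TAIR10.1. The annotation gives 1 gene for 13513 probe sets, several for 503 and none for 8730. R 4.3.3 with limma 3.58.1 was used to fit genotype to the log2 signal of the 9 arrays with no other term (lmFit, then eBayes), with Benjamini-Hochberg adjustment over 22746 probe sets. The fit was also run on simulated data with the same spread in every genotype. Such data lack the wider spread of the Cvi arrays, so they cannot show how the fit behaves with it.

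The members, the gene lists and the grouping were chosen with earlier results of these data known. Values on every array are given for called members and for their neighbours in a cluster, other members by range. Measured genes of the other lists were also named where they missed the test, a choice made after their values were seen. The alternatives were quantile normalization, centring on the median, leaving out the dim probe sets, fitting 6 arrays, a block for the replicate number, a robust eBayes with a mean trend, adding 16 to the signal before log2, a fold of at least 2 and leaving out each array in turn. The labels do not say that replicate numbers pair the arrays, and the main fit used no pairing.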

Additional observations from a re-analysis of the deposited data

How the results depend on the processing

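For the 8 called differences of named members 112 alternative values were computed, and 98 of these kept the call. None changed sign, but many of the alternatives could not have changed it. Leaving out the dim probe sets, fitting 6 arrays, the block, the robust eBayes and the fold of at least 2 leave a difference as it was. AT3G22570 and AT4G22460 were called throughout. Between Cvi and L*er* 2 members were lower (1 in a fit to the 6 arrays compared, 1 to 3 when 1 array was left out), and 3 were higher (2 at a fold of at least 2, 2 to 4 when 1 array was left out). At a fold of at least 2, 4 of the 27 members were called here, against 3.88% of all probe sets, which was not tested. The members were chosen with earlier results of these data known. AT2G45180 was 1 of the 4, and without Cvi array 1 its difference of −0.86 was under a fold of 2. Between the NIL and Cvi 2 were lower (1 in the fit to 6 arrays, 1 at a fold of at least 2, 1 to 3 when 1 array was left out), and 1 was higher (1 to 3 when 1 array was left out). Here 2 of the 27 members were called at a fold of at least 2, against 3.39% of all probe sets. The NIL and L*er* differed at 0 members in all of these. Over all probe sets, 1307 were called higher and 1653 lower in Cvi than in L*er*, against 828 and 1116 in the fit to 6 arrays and 2611 and 2785 without Cvi array 1. Between the NIL and L*er* 81 probe sets were called, against 223 in the fit to 6 arrays, 43 at a fold of at least 2 and 30 to 46 when 1 array was left out. Between the NIL and Cvi 2465 were called, against 1529 in the fit to 6 arrays, 772 at a fold of at least 2 and 1560 to 4028 when 1 array was left out. The causes were not tested.

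With the replicate number as a block, 3 members were higher and 2 lower in Cvi than in L*er*, and 1 was higher and 2 lower in the NIL than in Cvi, so the block changed no count of called members. The deviations of same-numbered arrays had correlations of −0.26 to 0.23, and whether such arrays were handled together was not tested.

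For the 16 differences of named members that missed the test, 218 alternative values were computed, of which 5 passed it and 11 had the opposite sign. AT4G22490 between Cvi and L*er* was 0.0041 with arrays centred on the median and −0.14 to 0.078 when 1 array was left out. Over such fits, the difference between the NIL and L*er* was −0.027 to 0.083 for AT4G22460, −0.083 to 0.10 for AT4G22470 and −0.022 to 0.31 for AT2G18370, and that between the NIL and Cvi was −0.21 to 0.055 for AT3G22620.

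Without Cvi array 1, an alternative chosen after seeing the data for the members not called and for the other lists, the difference between Cvi and L*er* changed sign for AT5G38170 (0.026), AT5G38180 (0.060), AT5G01870 (0.21), AT2G48130 (0.13), AT1G62510 (0.033), AT2G10940 (0.054), *WSD1* (0.029), AT5G03350 (0.070), *LBD29* (0.21), *EXPA18* (0.094) and *KINESIN-12B* (−0.15), none of which was called.

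Signal over background was not given for the 12 dim members, none of which was called. Between Cvi and L*er*, 6.12% of all 7582 dim probe sets passed the test.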

Other observations

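The 5 nearest genes measured by a probe set that names no other gene, on either side, of each called member were looked at for the difference between Cvi and L*er*, without a test of clustering. Of 50 such genes 7 were called, or 14%, while 13% of all probe sets were called. Around AT3G22570, 2 of 10 were called, both lower in Cvi (AT3G22540 at −1.26 and AT3G22520 at −0.61), and the difference of AT3G22570 itself was −5.25. Around AT4G22460, 1 of 10 was called, AT4G22390, which was higher in Cvi by 1.43. Around AT2G18370, 2 of 10 were called, both lower in Cvi (AT2G18400 at −1.0 and AT2G18410 at −0.57), whereas AT2G18370 was higher. The NIL too was lower than L*er* at these 2 neighbours, by −0.63 for AT2G18400 and −0.59 for AT2G18410, neither of them called. Around AT2G45180, 1 of 10 was called, the directly adjacent AT2G45170, at −0.62. Around AT3G58550, 1 of 10 was called, AT3G58470, higher in Cvi by 0.56. At the called neighbours other than AT2G18400 and AT2G18410, the NIL differed from L*er* by −0.24 to 0.13. These neighbours were named after their values were seen.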
